A study of Homo sapiens with 30 samples.

Results

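The enzymes that build cholesterol and fatty acids from acetyl-CoA, with the proteins that switch these genes on and off and carry sterol within and out of the cell, were followed through a p53 expression experiment. The set holds 35 genes named as members of these pathways and found by their Ensembl identifiers among the 39359 genes of the raw count table. By role there are 7 genes of the mevalonate steps, 11 of the sterol steps, 5 of the control of sterol regulatory element-binding proteins (SREBP), 3 of sterol transport and 9 of the fatty acid steps. All 35 passed the filter on low counts and were tested, within a total of 21335 genes.

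The cells were H1299, a human lung carcinoma line without p53, transiently transfected with one of 4 vectors and sorted for green fluorescent protein (GFP) after 6 h or 24 h. The vector pGFP encodes GFP alone. The others also encode p53 from a promoter of their own, either wild type (p53-WT), altered at codon 248 (p53-RW, the RW mutant), or wild type with an O6-methylguanine in the template strand at that codon (p53-O6meG). Transcription past this lesion can yield the RW mutant, which is called transcriptional mutagenesis (TM). The p53 TM cultures carried the p53-O6meG vector and received 10 µM O6bzG, which blocks the repair of the lesion by AGT. No other culture received O6bzG, so the lesion with blocked repair and the drug itself cannot be told apart in any comparison with p53 TM. Both genes of a vector are driven by tetracycline response element-tight promoters on plasmids, so p53 was made from a vector and not from its own locus, and only transfected cells were kept by the sort. Total RNA was sequenced from 3 biological replicates of each vector or treatment at each time, 30 libraries in all.

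Titles of 2 libraries of replicate 2 at 6 h contradict themselves, naming p53-O6meG in one place and p53-O6meG with O6bzG in the other. The one whose title starts with p53-O6meG held 250 CPM of CDKN1A, a p53 target, and the other 50.2, where p53 O6meG libraries held 261 to 269 and p53 TM libraries 57.9 to 65.9. These 2 libraries entered no group, since groups were taken from the labels alone, so p53 O6meG and p53 TM at 6 h rest on 2 libraries each and the other 8 groups on 3. The libraries held 32302699 to 71950532 counted reads (median 44424643), and the 35 genes together took 0.375% to 0.482% of them. CDKN1A, the p53 target that encodes p21, lay at 44.6 to 50.2 CPM (counts scaled to the effective library size) with pGFP at 24 h and at 513 to 788 CPM with wild type p53. The share of counts on mitochondrially encoded genes was 0.123% to 0.428% at 6 h and 0.31% to 1.19% at 24 h. The epithelial keratins KRT8 and KRT18 were at 111 to 181 and 272 to 720 CPM, and the 7 measured markers of leukocytes, endothelium, fibroblasts and hepatocytes each stayed below 1 CPM, with 19 to 95 counts in sum per library. In bulk samples fewer cells of a kind and less RNA per cell cannot be told apart.

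Cells make cholesterol from acetyl-CoA by way of mevalonate, isoprenoid diphosphates, squalene and lanosterol, and make fatty acids from the same acetyl-CoA by carboxylation and stepwise elongation. When membrane sterol falls, the escort protein SCAP carries SREBP to the Golgi, where it is cut and released to the nucleus to turn on nearly every gene of both routes. INSIG1 and INSIG2 hold SCAP back when sterol is plentiful. Excess oxysterol instead activates the liver X receptors, which raise the exporters ABCA1 and ABCG1.

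The stretches before the start sites of 3 genes of the sterol steps called with wild type p53 at 24 h are shown because these enzymes of 1 route moved in different directions, with that of ABCA1, chosen after its values were seen, because it moved most. They are RefSeq sequences of GRCh38.p14, from up to 250 bases before the start, less any base inside the GENCODE gene. They lie at chr11:65111622-65111844 (plus strand) for TM7SF2, chr1:162790452-162790701 (plus) for HSD17B7, chr11:121292521-121292680 (plus) for SC5D and chr9:104928156-104928405 (minus) for ABCA1. Capitals mark the CCAAT box (CCAAT), the GC box (GGGCGG), the E-box (CACGTG) and the p53 decamer, each on either strand.
TM7SF2: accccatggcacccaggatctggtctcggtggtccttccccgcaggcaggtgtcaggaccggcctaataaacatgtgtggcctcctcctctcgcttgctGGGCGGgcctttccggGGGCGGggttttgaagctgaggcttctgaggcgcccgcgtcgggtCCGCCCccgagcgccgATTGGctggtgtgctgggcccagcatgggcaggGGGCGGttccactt
HSD17B7: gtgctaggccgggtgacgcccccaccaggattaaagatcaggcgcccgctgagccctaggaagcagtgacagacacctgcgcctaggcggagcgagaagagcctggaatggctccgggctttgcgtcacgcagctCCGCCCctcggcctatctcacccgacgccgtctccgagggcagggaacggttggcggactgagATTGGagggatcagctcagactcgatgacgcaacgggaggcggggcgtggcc
SC5D: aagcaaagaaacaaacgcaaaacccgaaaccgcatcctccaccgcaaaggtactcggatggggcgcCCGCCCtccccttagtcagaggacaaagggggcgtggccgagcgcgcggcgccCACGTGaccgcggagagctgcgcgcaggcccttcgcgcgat
ABCA1: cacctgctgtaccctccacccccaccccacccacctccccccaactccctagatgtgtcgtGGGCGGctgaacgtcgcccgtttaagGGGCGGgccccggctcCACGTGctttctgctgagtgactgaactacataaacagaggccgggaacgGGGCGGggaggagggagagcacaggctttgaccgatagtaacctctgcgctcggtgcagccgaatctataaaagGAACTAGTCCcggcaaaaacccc
No capitals overlap. The CCAAT box of SC5D, 56 to 52 bases before the start, lies in the 90 bases left out of its sequence. A window was found for 30 of the 35 genes, but not for FDFT1 and SQLE, the other sterol genes called. A CCAAT box was present in the 250 bases of 20 of the 30 (66.7%, against 37% of 27305 genes) and a GC box in 29 (96.7%, against 46.2%). These 27305 genes were not limited to those tested here, and a gene counted if any of its windows matched. The differences in share were not tested. The E-box was present in 4, SC5D, INSIG1, SCAP and ABCA1 (13.3%, against 7.73%). The sterol regulatory element letters TCACNCCAC were present in SREBF2 alone (3.33%, against 1.09%). Single p53 decamers were present in MVK, INSIG1 and ABCA1 (10%, against 6.8%), that of ABCA1 at 23 to 14 bases before the start. A match of letters is a description of the window and no binding was measured.

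The RW mutant was compared with pGFP first. CDKN1A stood at 44.9 to 50.5 CPM with the RW mutant at 24 h, and active p53 below means the p53-WT and p53-O6meG vectors. None of the 35 genes was called at 6 h or at 24 h, where a call is an adjusted P under 0.05 in edgeR's quasi-likelihood test, and none had an unadjusted P under 0.05. The background was 0.00469% of the 21335 genes tested, 1 gene, at either time. Leaving aside ABCG1, the log2 fold changes lay between −0.08 and 0.06 at 6 h and between −0.20 and 0.11 at 24 h, and all 34 of the 95% intervals at each time lay within a 1.5-fold change. DESeq2 also called none. ABCG1 had 4.7 counts per library on average and could not be measured to that precision.

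**Figure D1:**
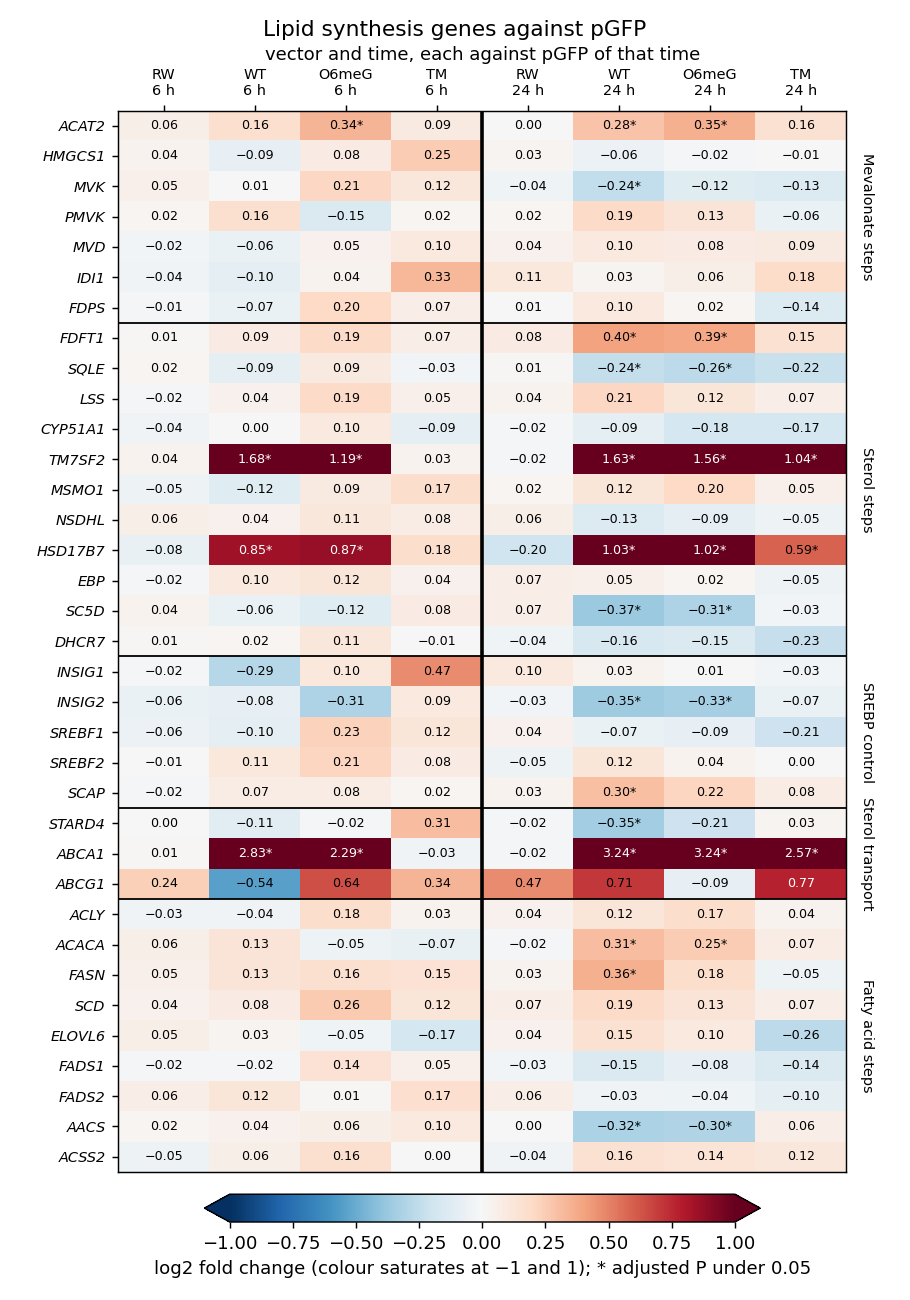
Log2 fold changes of the 35 genes (rows, by role) for RW mutant p53, wild type p53, p53 O6meG and p53 TM against pGFP of the same time (columns), with an asterisk where the adjusted P was under 0.05. ABCA1, TM7SF2 and HSD17B7 carry the largest called values, up to 3.24 for ABCA1, and the RW columns carry none.

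ABCA1, TM7SF2 and HSD17B7 were the genes called with wild type p53 at 6 h against pGFP, 3 of the 35 and all higher, against 8.68% of all genes tested called higher and 1.59% called lower. ABCA1 and TM7SF2 rose by at least 2-fold, as 4.39% of all genes did. No gene of the mevalonate, SREBP control or fatty acid lists was called. The remaining 31 genes other than ABCG1 differed from pGFP by log2 fold changes between −0.29 and 0.16, and 30 of these intervals lay within a 1.5-fold change. The median log2 fold change was 0.03 over the 35 genes and 0.02 over all genes tested.

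At 24 h, 14 of the 35 genes were called, 8 higher and 6 lower, against 20.5% of all genes called higher and 14.5% called lower. Only ABCA1, TM7SF2 and HSD17B7 rose by at least 2-fold, where 9.22% of all genes did. Among the other 11 the greatest change was the 1.32-fold rise of FDFT1. The sterol steps split, with FDFT1, TM7SF2 and HSD17B7 higher and SQLE and SC5D lower, and so did the mevalonate steps (ACAT2 higher, MVK lower), SREBP control (SCAP higher, INSIG2 lower), transport (ABCA1 higher, STARD4 lower) and the fatty acid steps (ACACA and FASN higher, AACS lower). The shares of the 35 genes called higher and called lower were both near those over all genes. Calls in both directions were thus common in the background too. Whether the genes of any role split more than other genes did was not tested. The median log2 fold change was 0.10 over the 35 genes and 0.01 over all genes tested. Libraries of the 2 groups did not overlap for 14 of the 35 genes, 13 of them called, and the share over all genes was not counted. Without pGFP replicate 1 the count was 9. In the same comparison 7 of 10 cell cycle genes measured alongside fell and 2 rose, CDK1 from a mean of 130 to 51.8 CPM, and the share of mitochondrially encoded counts had a median of 0.961% against 0.633%. Their part in the result was not tested.

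ABCA1 exports cholesterol and phospholipid to apolipoproteins. At 6 h it stood at 13.8, 12.4 and 15.2 CPM in the pGFP libraries, 14.8, 10.9 and 16.1 with the RW mutant, 89.9, 90.6 and 115 with wild type p53, 72 and 63.4 with p53 O6meG, and 12.5 and 14.5 with p53 TM. The wild type and p53 O6meG libraries lay far above the rest and the p53 TM libraries lay within the pGFP range. At 24 h it stood at 24.7, 20 and 17.9 CPM with pGFP, 25.1, 20 and 16.4 with the RW mutant, 260, 183 and 146 with wild type p53, 269, 178 and 144 with p53 O6meG, and 190, 102 and 78.2 with p53 TM. Each p53 TM library lay above all pGFP and RW libraries. Replicate 1 was the highest in every group at 24 h, pGFP and the RW mutant included. Wild type p53 raised ABCA1 7.11-fold at 6 h (log2 2.83 ± 0.28, SE, adjusted P = 3.34e-08) and 9.44-fold at 24 h (log2 3.24 ± 0.28, adjusted P = 1.15e-09).

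TM7SF2 encodes a sterol reductase that acts on the lanosterol branch. Its 6 h levels were 11.2, 11.2 and 9.64 CPM with pGFP, 10.9, 11.2 and 10.7 with the RW mutant, 33.4, 33.8 and 35.4 with wild type p53, 26.7 and 21.9 with p53 O6meG, and 10.5 and 11.3 with p53 TM. Its 24 h levels were 22.6, 21.1 and 19.5 CPM with pGFP, 23.5, 20.2 and 18.7 with the RW mutant, 77, 65.4 and 53.1 with wild type p53, 80.8, 59.2 and 45.7 with p53 O6meG, and 56.9, 41 and 32 with p53 TM. The groups with active p53 lay clear of pGFP at 24 h, while p53 TM overlapped wild type p53. The rise with wild type p53 was 3.21-fold at 6 h (log2 1.68 ± 0.18, adjusted P = 1.62e-07) and 3.10-fold at 24 h (log2 1.63 ± 0.18, adjusted P = 5.04e-08). An exon of TM7SF2 overlaps VPS51 on the same strand, and VPS51 itself differed from pGFP by a log2 fold change of 0.04 ± 0.10 at 6 h and 0.03 ± 0.10 at 24 h with wild type p53.

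HSD17B7 encodes a ketosteroid reductase of sterol synthesis. Its 6 h levels were 8.35, 7.47 and 9.58 CPM with pGFP, 8.31, 7.28 and 8.52 with the RW mutant, 14.9, 14.7 and 16.2 with wild type p53, 14 and 17 with p53 O6meG, and 9.42 and 9.75 with p53 TM. Its 24 h levels were 10.4, 11.1 and 10.5 CPM with pGFP, 9.72, 9.72 and 8.32 with the RW mutant, 25.4, 23 and 16.8 with wild type p53, 22.9, 22.4 and 19.6 with p53 O6meG, and 20.3, 14.2 and 13.7 with p53 TM. Wild type p53 and p53 O6meG lay above every pGFP library at both times. The rise with wild type p53 was 1.80-fold at 6 h (log2 0.85 ± 0.14, adjusted P = 0.000112) and 2.04-fold at 24 h (log2 1.03 ± 0.14, adjusted P = 2.23e-06). The near-identical copy HSD17B7P2 had 22 to 29 counts with pGFP and 91 to 163 with wild type p53 at 24 h, and how reads were shared between such copies is uncertain.

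**Figure D2:**
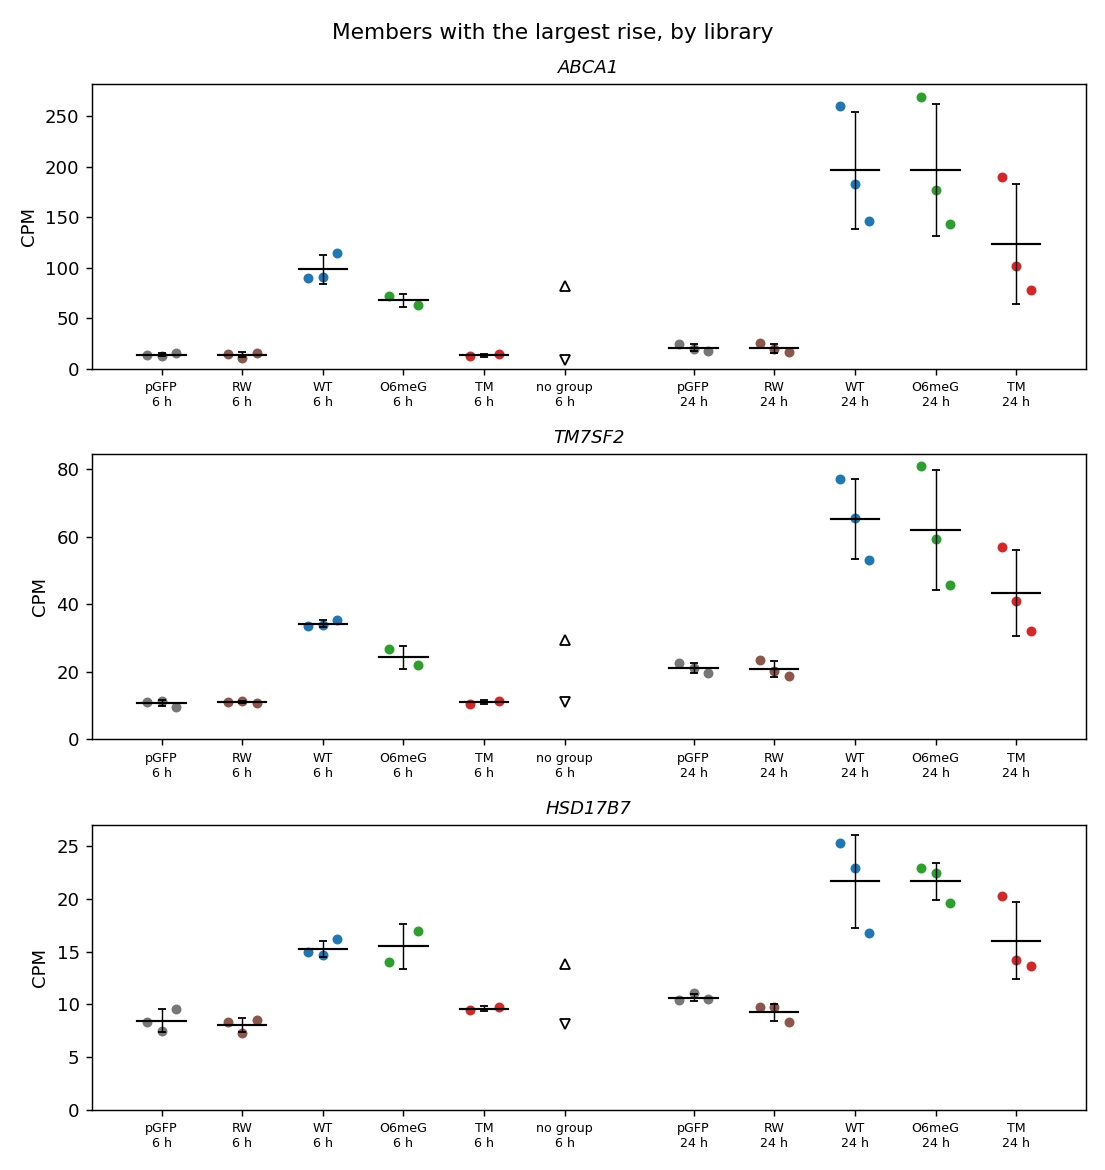
CPM of ABCA1, TM7SF2 and HSD17B7 in each library by vector or treatment and time, with filled points for libraries, a bar at the group mean and whiskers of 1 SD. Open triangles are the 2 libraries whose titles conflict. At 6 h the p53 TM points sit at the pGFP level (ABCA1 12.5 and 14.5 CPM), and at 24 h it was 78.2 to 190 CPM.

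Of the mevalonate steps, ACAT2 and MVK were called with wild type p53 at 24 h. ACAT2, a thiolase at the entry of the pathway, stood at 148, 163 and 151 CPM with pGFP and at 187, 202 and 171 with wild type p53, with no overlap. This was a 1.22-fold rise (log2 0.28 ± 0.08, adjusted P = 0.00566). Its exons overlap TCP1 on the opposite strand, which differed from pGFP by a log2 fold change of −0.06 ± 0.08. MVK, mevalonate kinase, stood at 24.9, 24.8 and 27.4 CPM with pGFP and at 19.1, 22.9 and 23.1 with wild type p53. The fall was 1.18-fold (log2 −0.24 ± 0.09, adjusted P = 0.0392), and it was not called when any of pGFP replicates 1, 2 or 3 or wild type replicate 1 was left out (adjusted P up to 0.151). MVK overlaps MMAB on the opposite strand, which rose (log2 0.47 ± 0.09, adjusted P = 0.000309). HMGCS1, PMVK, MVD, IDI1 and FDPS, which cover the synthase at the head of the route, the second kinase, the decarboxylase, the isomerase and the farnesyl diphosphate synthase, gave log2 fold changes from −0.06 to 0.19 and were not called.

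Of the sterol steps apart from TM7SF2 and HSD17B7, FDFT1 rose and SQLE and SC5D fell with wild type p53 at 24 h. FDFT1, squalene synthase, stood at 80.7, 105 and 96.5 CPM with pGFP and at 115, 139 and 119 with wild type p53, a 1.32-fold rise (log2 0.40 ± 0.12, adjusted P = 0.0115). SQLE, the squalene epoxidase that follows it, stood at 120, 124 and 126 CPM with pGFP and at 95.3, 103 and 114 with wild type p53, a 1.18-fold fall (log2 −0.24 ± 0.09, adjusted P = 0.0412). Thus the enzymes on either side of squalene moved in opposite directions, each without overlap of libraries. SC5D, a sterol desaturase near the end of the route, stood at 43, 46.9 and 43.4 CPM with pGFP and at 34.1, 34.1 and 34.9 with wild type p53, a 1.29-fold fall (log2 −0.37 ± 0.10, adjusted P = 0.00658). FDFT1 was not called without pGFP replicate 1 or wild type replicate 2 (adjusted P up to 0.0849), and SQLE was not called in 5 of the 6 fits that left out a library of either group, all but the one without wild type replicate 3 (up to 0.104). LSS, CYP51A1, MSMO1, NSDHL, EBP and DHCR7 gave log2 fold changes from −0.16 to 0.21 and were not called. With the replicate number as a block, LSS (log2 0.21, adjusted P = 0.0134) was called higher and NSDHL (−0.14, adjusted P = 0.0314) and DHCR7 (−0.16, adjusted P = 0.00272) lower.

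Among the control and transport genes SCAP rose while INSIG2 and STARD4 fell at 24 h. SCAP, the SREBP escort, stood at 71.6, 89.2 and 90.7 CPM with pGFP and at 94, 113 and 103 with wild type p53 (log2 0.30 ± 0.10, adjusted P = 0.0171). INSIG2, which retains SCAP, stood at 18.8, 23.2 and 21.6 CPM with pGFP and at 13.2, 18.3 and 18.2 with wild type p53 (log2 −0.35 ± 0.12, adjusted P = 0.0223). STARD4, a carrier of sterol between membranes, stood at 75.7, 82.7 and 68.2 CPM with pGFP and at 53, 64.3 and 60.6 with wild type p53 (log2 −0.35 ± 0.11, adjusted P = 0.0120). None of the 3 overlapped pGFP. SCAP was not called without pGFP replicate 1 or wild type replicate 2 (adjusted P up to 0.139), INSIG2 without wild type replicate 1 or pGFP replicate 2 or 3 (up to 0.111), and STARD4 without pGFP replicate 2 (0.0751). INSIG1, itself a well known SREBP target, gave 42.5, 69.9 and 62 CPM with pGFP and 43.2, 64.7 and 70.5 with wild type p53 at 24 h. Its 95% interval ran from a log2 fold change of −0.45 to 0.51, and the genes of the SREBP proteins, SREBF1 (−0.07 ± 0.21) and SREBF2 (0.12 ± 0.10), were not called either.

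Of the fatty acid steps, ACACA and FASN rose and AACS fell at 24 h. ACACA, which makes malonyl-CoA, stood at 108, 126 and 120 CPM with pGFP and at 134, 153 and 152 with wild type p53 (log2 0.31 ± 0.08, adjusted P = 0.00263). FASN, the fatty acid synthase, stood at 424, 580 and 552 CPM with pGFP and at 566, 702 and 723 with wild type p53, with overlap (log2 0.36 ± 0.12, adjusted P = 0.0223). FASN was not called without pGFP replicate 1 or wild type replicate 2 or 3 (adjusted P up to 0.168). AACS, which activates acetoacetate for lipid synthesis, stood at 57.9, 49.9 and 49.6 CPM with pGFP and at 41.8, 42 and 42.2 with wild type p53, without overlap (log2 −0.32 ± 0.07, adjusted P = 0.000717). Its call held without any single library of either group. ACLY, SCD, ELOVL6, FADS1, FADS2 and ACSS2, which supply acetyl-CoA or desaturate and elongate fatty acids, gave log2 fold changes from −0.15 to 0.19 and were not called. With the replicate block SCD was called higher (log2 0.19, adjusted P = 0.0124) and FADS1 lower (−0.15, adjusted P = 0.0143). Without the filter on low counts ACAT2, FDFT1, SCAP, ACACA and FASN were no longer called (adjusted P between 0.0585 and 0.186), which left 9 genes.

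**Figure D3:**
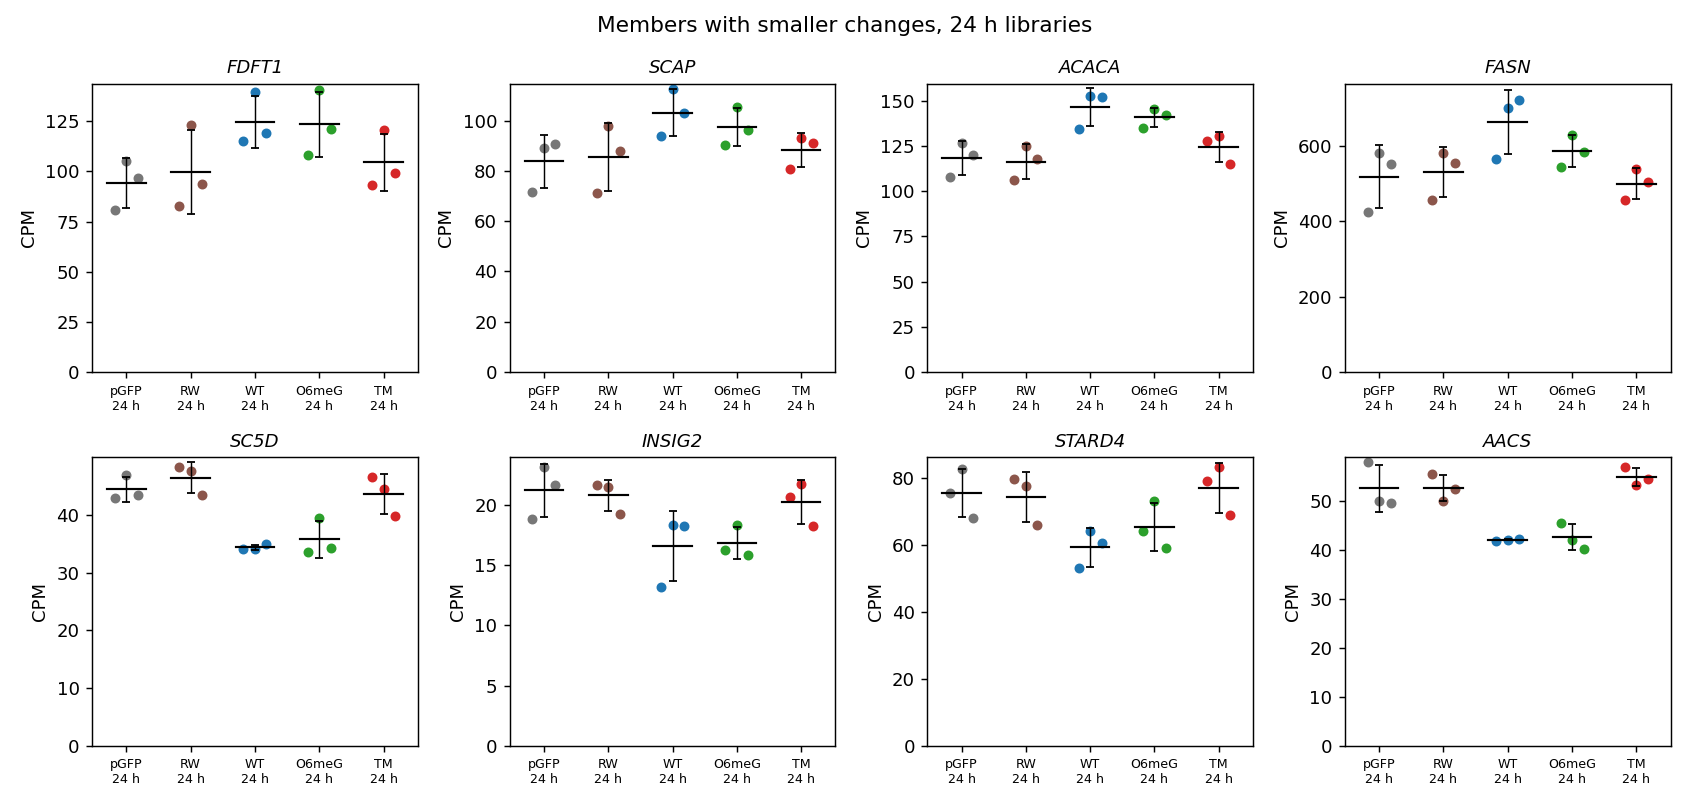
CPM of FDFT1, SCAP, ACACA, FASN, SC5D, INSIG2, STARD4 and AACS in the 24 h libraries, with points for libraries, a bar at the group mean and whiskers of 1 SD. AACS sits at 41.8 to 42.2 CPM for wild type p53 and at 53.1 to 56.9 CPM for p53 TM.

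The RW mutant served as the other control for wild type p53 at 24 h. Again 14 genes were called, 8 higher and 6 lower, against 20.2% and 15.4% of all genes. These were 13 of the genes called against pGFP, in the same directions, with NSDHL (log2 −0.20 ± 0.07, adjusted P = 0.0363) in place of MVK (−0.20, adjusted P = 0.0881). With the replicate block MVK was called (−0.20, adjusted P = 0.0273), as were LSS, DHCR7, SREBF2 and ACSS2, 19 in all, against 26.2% of all genes called higher and 22.2% called lower in that fit. The wild type p53 libraries are shared by both comparisons, so the second is not independent of the first. ABCA1 was 9.59-fold higher than with the RW mutant, TM7SF2 3.13-fold and HSD17B7 2.34-fold. Of the 14 calls, 8 were lost when some library was left out, those of ACAT2, FDFT1, SQLE, NSDHL, INSIG2, SCAP, STARD4 and FASN.

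One gene, AACS, was called for a change in response to wild type p53 between 6 h and 24 h, tested as the difference of both log2 fold changes. Over all genes 3.73% were called higher and 2.77% lower in that test. At 6 h AACS stood at 43.2, 43 and 40.8 CPM with pGFP and at 42.9, 43.9 and 43.7 with wild type p53. From 6 h to 24 h its mean went from 42.3 to 52.5 CPM with pGFP and from 43.5 to 42.0 with wild type p53. The difference of log2 fold changes was −0.36 ± 0.10 (adjusted P = 0.0272), and it was not called in 6 of 12 fits that each left out a library (adjusted P up to 0.109), those without replicate 2 or 3 of pGFP or wild type at 6 h, pGFP replicate 1 at 24 h or wild type replicate 2 at 24 h. For ABCA1 it was 0.41 ± 0.37, for TM7SF2 −0.05 ± 0.25 and for HSD17B7 0.18 ± 0.20, none of them called. With the replicate block 5 genes were called, AACS with FDFT1 (0.32, adjusted P = 0.00343), INSIG1 (0.32, adjusted P = 0.0456), SCAP (0.23, adjusted P = 0.0281) and DHCR7 (−0.18, adjusted P = 0.0368), against 9.63% of all genes called higher and 8.64% called lower in that fit.

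The p53 O6meG cultures, in which AGT could still repair the lesion, were compared with pGFP. At 6 h ACAT2, TM7SF2, HSD17B7 and ABCA1 were called, all higher, against 4.32% of all genes called higher and 0.53% called lower. ABCA1 rose 4.89-fold (log2 2.29 ± 0.29, adjusted P = 4.76e-06), TM7SF2 2.28-fold and HSD17B7 1.83-fold. ACAT2 stood at 213 and 229 CPM against 165 to 186 with pGFP (log2 0.34 ± 0.09, adjusted P = 0.0188), and it was not called without pGFP replicate 2 or 3 or p53 O6meG replicate 3 (adjusted P up to 0.224). With the 2 libraries of conflicting titles placed by their genotype, no gene was called, and ABCA1 then had an adjusted P of 0.169. Placed instead by how their titles begin, the same 4 genes were called (ABCA1 with adjusted P = 4.93e-07).

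At 24 h 10 genes were called with p53 O6meG, against 18.1% of all genes called higher and 11.3% called lower. The higher ones were ACAT2, FDFT1, TM7SF2, HSD17B7, ABCA1 and ACACA, and the lower ones SQLE, SC5D, INSIG2 and AACS. ABCA1 was 9.45-fold above pGFP, TM7SF2 2.94-fold and HSD17B7 2.03-fold. AACS stood at 45.3, 42 and 40.1 CPM, below all pGFP libraries. The calls of FDFT1, SQLE, SC5D, INSIG2 and ACACA were lost without some single library (largest adjusted P between 0.0968 and 0.208). Of the 10 cell cycle genes 6 fell and 1 rose, and their part in the result was not tested. The count rose to 16 with the replicate block, the same 10 with MSMO1, DHCR7, SCAP, STARD4, ACLY and FASN, where 24.4% of all genes were called higher and 18.4% lower in that fit.

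With p53 TM, none of the lipid genes was called against pGFP at 6 h, where 2 libraries were available, and 3 were higher at 24 h. The background at 6 h was 0.202% of all genes, and 3 of the 35 had an unadjusted P under 0.05 while DESeq2 called none. INSIG1 stood at 92.4 and 72.6 CPM against 49.9 to 66.3 with pGFP (log2 0.47 ± 0.26, adjusted P = 0.900) and IDI1 at 128 and 109 CPM against 88 to 99.6 (0.33, adjusted P = 0.763). Both were called higher with the replicate block (adjusted P = 0.0174 and 0.0122), although the numbers at 6 h were not taken as pairs. At 24 h TM7SF2, HSD17B7 and ABCA1 rose and none fell, against 9% of all genes called higher and 1.68% called lower. With DESeq2 size factors the calls over all genes were 1509 higher and 606 lower. ABCA1 was 5.92-fold above pGFP (log2 2.57 ± 0.27, adjusted P = 1.99e-07), TM7SF2 2.06-fold (1.04 ± 0.17, adjusted P = 0.000145) and HSD17B7 followed with the least rise (0.59 ± 0.14, adjusted P = 0.00608). The call of HSD17B7 was lost without p53 TM replicate 1 (adjusted P = 0.0950). In the fit with the replicate block 11 genes were called, 6 higher and 5 lower, against 15.0% and 6.64% of all genes in that fit, with ACAT2, IDI1 and FDFT1 added to those higher and SQLE, DHCR7, SREBF1, ELOVL6 and FADS1 lower.

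The p53 TM cultures, which differ from those with wild type p53 in both the lesion and O6bzG, were compared with them. At 6 h ABCA1, TM7SF2 and HSD17B7 were lower and HMGCS1, IDI1 and STARD4 higher with p53 TM, against 2.77% of all genes called higher and 8.14% called lower. With DESeq2 size factors the calls over all genes were 897 higher and 1550 lower. ABCA1 was 7.27-fold lower (log2 −2.86 ± 0.32, adjusted P = 8.01e-07), TM7SF2 3.13-fold lower (−1.65 ± 0.21, adjusted P = 3.45e-06) and HSD17B7 1.59-fold lower (−0.67 ± 0.16, adjusted P = 0.00553). HMGCS1 stood at 127 and 114 CPM with p53 TM and at 101, 92.8 and 91.9 with wild type p53 (0.34 ± 0.09, adjusted P = 0.0197). IDI1 stood at 128 and 109 against 93.2, 89.8 and 81.4 CPM (0.43 ± 0.14, adjusted P = 0.0464). STARD4 stood at 88.3 and 86.6 against 63.9, 64.4 and 68.3 CPM (0.42 ± 0.12, adjusted P = 0.0194). The 3 higher genes did not overlap wild type p53. Libraries of these 2 groups did not overlap for 17 of the 35 genes, however, and only 6 of those were called. The share over all genes was not counted. Neither HMGCS1 nor IDI1 nor STARD4 was called against pGFP. Without p53 TM replicate 1 the count fell to 2, ABCA1 and TM7SF2, with adjusted P up to 0.0787 for HSD17B7, 0.306 for HMGCS1, 0.464 for IDI1 and 0.146 for STARD4 over the fits without a library. With the conflicting libraries placed by genotype none was called, and ABCA1 had an adjusted P of 0.176. Placed instead by how their titles begin, the calls of ABCA1, TM7SF2, HSD17B7, IDI1 and STARD4 were kept, and that of HMGCS1 was lost under either placement (adjusted P = 0.118 by the start of the title).

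At 24 h 8 genes differed between p53 TM and wild type p53, 3 higher and 5 lower, against 9.29% and 11.9% of all genes. TM7SF2 (log2 −0.59 ± 0.17, adjusted P = 0.0142) and HSD17B7 (−0.44 ± 0.14, adjusted P = 0.0259) were lower, and so were ACACA (128, 130 and 115 CPM with p53 TM, −0.23 ± 0.08, adjusted P = 0.0319) and FASN (458, 538 and 505 CPM, −0.41 ± 0.12, adjusted P = 0.0161). ELOVL6, which lengthens saturated fatty acids, stood at 19.9, 21.8 and 23.4 CPM with p53 TM, below the 25.2, 28.8 and 32.6 with wild type p53 (−0.41 ± 0.12, adjusted P = 0.0145), while pGFP stood at 22.3, 28.2 and 27.5. SC5D (46.5, 44.5 and 39.7 CPM, 0.34 ± 0.10, adjusted P = 0.0196), STARD4 (79.3, 83.4 and 68.9 CPM, 0.38 ± 0.11, adjusted P = 0.0118) and AACS (56.9, 53.1 and 54.4 CPM, 0.38 ± 0.07, adjusted P = 0.000338) were higher. These 3 genes were lower with wild type p53 than with pGFP at 24 h. Their p53 TM levels overlapped the pGFP range, with log2 fold changes of −0.03, 0.03 and 0.06 against pGFP. Only the AACS call held without every single library, and for the other 7 the largest adjusted P was between 0.0695 and 0.178. Without wild type replicate 2 the count was 4.

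ABCA1 was 123 CPM with p53 TM against 197 with wild type p53 in mean at 24 h (log2 −0.67 ± 0.25, adjusted P = 0.0598) and was not called. With the replicate block, in which each p53 TM library was set against the wild type library of its own number, it was called (−0.72 ± 0.10, adjusted P = 1.98e-06), and 13 genes were called in all, with FDPS, FDFT1, INSIG2 and SCAP added. Of these 4 were higher and 9 lower, against 16.8% and 20.2% of all genes in that fit. Taken from the means, p53 TM kept 58.4% of the rise of ABCA1 over pGFP with wild type p53 at 24 h, 50.4% of that of TM7SF2 and 48.9% of that of HSD17B7. At 6 h it kept −0.38%, 1.03% and 16.4%. The p53 O6meG cultures kept 100.2%, 92.6% and 99.7% at 24 h and 63.7%, 57.8% and 103.4% at 6 h.

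**Figure D4:**
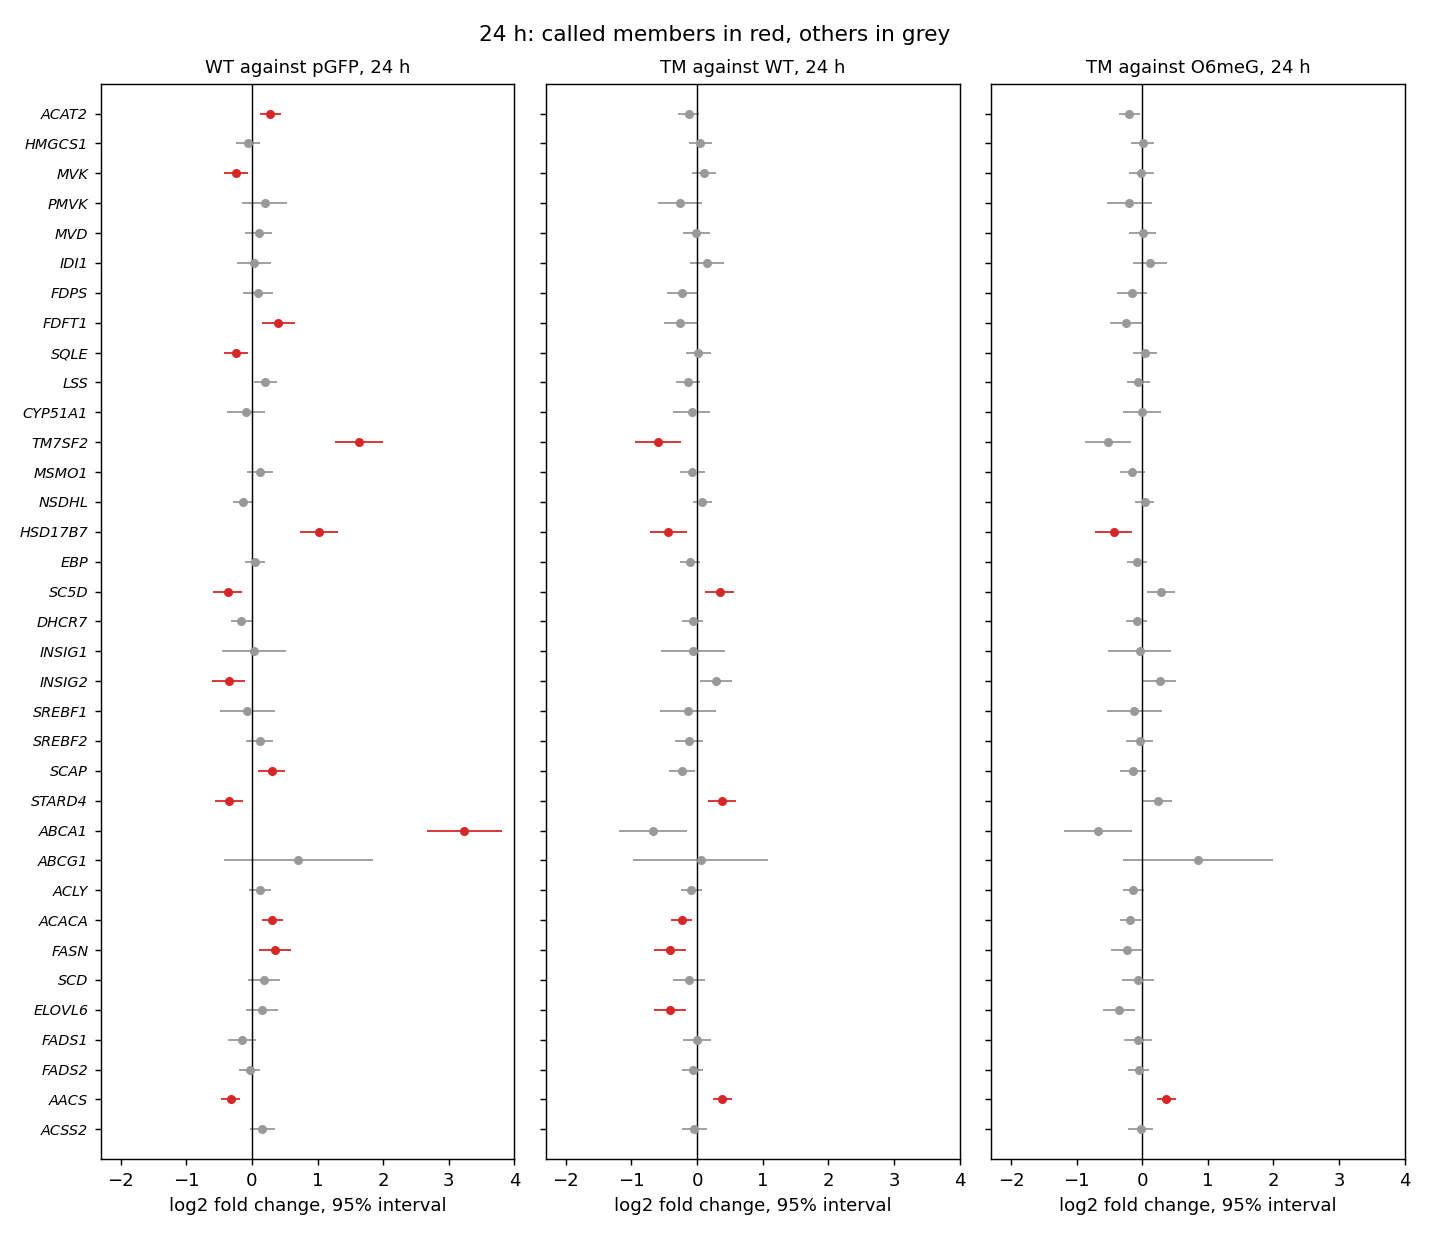
Log2 fold changes with 95% intervals at 24 h for wild type p53 against pGFP, p53 TM against wild type p53 and p53 TM against p53 O6meG, with the genes called in red. AACS lies at −0.32, 0.38 and 0.37 in the 3 panels, and ABCA1 at 3.24, −0.67 and −0.67.

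Both arms of the comparison of p53 TM with p53 O6meG carried the same vector and differed in O6bzG. At 24 h 2 genes were called, AACS higher (1.29-fold, log2 0.37 ± 0.07, adjusted P = 0.00154) and HSD17B7 lower (1.35-fold, −0.43 ± 0.14, adjusted P = 0.0468), against 3.47% of all genes called higher and 6.58% called lower. The AACS libraries did not overlap. HSD17B7 was not called without p53 O6meG replicate 1 or 2 or p53 TM replicate 2 or 3 (adjusted P up to 0.224), and without p53 TM replicate 1 the count was 4. TM7SF2 (−0.52 ± 0.17, adjusted P = 0.0543) and ABCA1 (−0.67 ± 0.25, adjusted P = 0.0925) were not called. With the replicate block 14 genes were called, 4 higher and 10 lower, against 10.1% and 15.1% of all genes in that fit, among them ABCA1 (−0.71, adjusted P = 6.26e-06), TM7SF2 (−0.52, adjusted P = 7.58e-05), ELOVL6 (−0.35, adjusted P = 0.000375) and SC5D (0.28, adjusted P = 0.00737).

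The same vector was also compared between the times, without active p53. From 6 h to 24 h with pGFP 14 of the 35 genes were called, 9 lower and 5 higher, against 22.3% of all genes called lower and 19% called higher. With the RW mutant 15 were called, 10 lower and 5 higher, against 21.2% and 18.8%. With DESeq2 size factors the calls over all genes were 4091 lower and 4539 higher with pGFP, and 4087 lower and 4376 higher with the RW mutant. Between the times 6 of 10 cell cycle genes fell in each control and none rose. The keratin KRT18 fell (log2 −0.82 and −0.79), which does not speak for KRT8. With pGFP at 6 h KRT8 had 6978, 7322 and 7708 counts in libraries of 51236720, 46752114 and 58732541. At 24 h it had 4593, 5899 and 6162 counts in libraries of 32302699, 40365441 and 39385161. The endothelial marker PECAM1 rose from a mean of 0.0943 to 0.535 CPM with pGFP. It rose from 0.0706 to 0.548 CPM with the RW mutant, where the hepatocyte marker ALB also rose. The mitochondrially encoded share was 0.171% to 0.351% at 6 h and 0.609% to 0.725% at 24 h with pGFP, and 0.160% to 0.365% and 0.310% to 0.786% with the RW mutant, where the times overlapped. Their part in the result was not tested. FDPS, FDFT1, SQLE, LSS, ACLY, ACACA, FASN, SCD and ELOVL6 were lower in both, and TM7SF2, FADS2, AACS and ACSS2 higher in both. SQLE was not called in 4 of 7 other settings with pGFP (adjusted P up to 0.230) and in 5 of 7 with the RW mutant (up to 0.242), DESeq2 and its size factors among them. Among the fatty acid genes 8 of 9 were called in each control, all but FADS1. SREBF2 was called with pGFP alone (0.29 ± 0.10, adjusted P = 0.0261), and ACAT2 (−0.24 ± 0.08, adjusted P = 0.0157) and ABCG1 with the RW mutant alone. The change of ABCG1 was between levels of at most 0.0748 and 0.199 CPM.

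ELOVL6 showed the steepest fall among these with pGFP, from 41.1, 39.8 and 41.6 CPM at 6 h to 22.3, 28.2 and 27.5 at 24 h (log2 −0.65 ± 0.12, adjusted P = 0.0001). ACACA followed, from 182, 178 and 178 CPM to 108, 126 and 120 (−0.60 ± 0.08, adjusted P = 1.38e-06). SCD fell from 878, 880 and 1081 CPM to 658, 777 and 773 and FASN from 671, 672 and 708 CPM to 424, 580 and 552. None of these 4 overlapped between the times. TM7SF2 rose 1.97-fold, so the pGFP level it was set against was higher at 24 h. ACSS2, which makes acetyl-CoA from acetate, rose from 27.8, 27.2 and 27.1 CPM to 38.7, 36.6 and 36.8 (0.45 ± 0.09, adjusted P = 0.000388). With wild type p53 ACACA stood at 134 to 153 CPM at 24 h and 186 to 209 at 6 h, and FASN at 566 to 723 and 711 to 811, with overlap for FASN. Without pGFP replicate 1 at 24 h the pGFP count was 9, and without RW replicate 1 at 24 h the RW count was 8. LSS, TM7SF2, ACLY, ACACA, ELOVL6, AACS and ACSS2 kept their calls with pGFP without every single library. The libraries at 6 h and 24 h came from cultures harvested at different times after transfection, and time in culture and time of expression cannot be told apart.

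**Figure D5:**
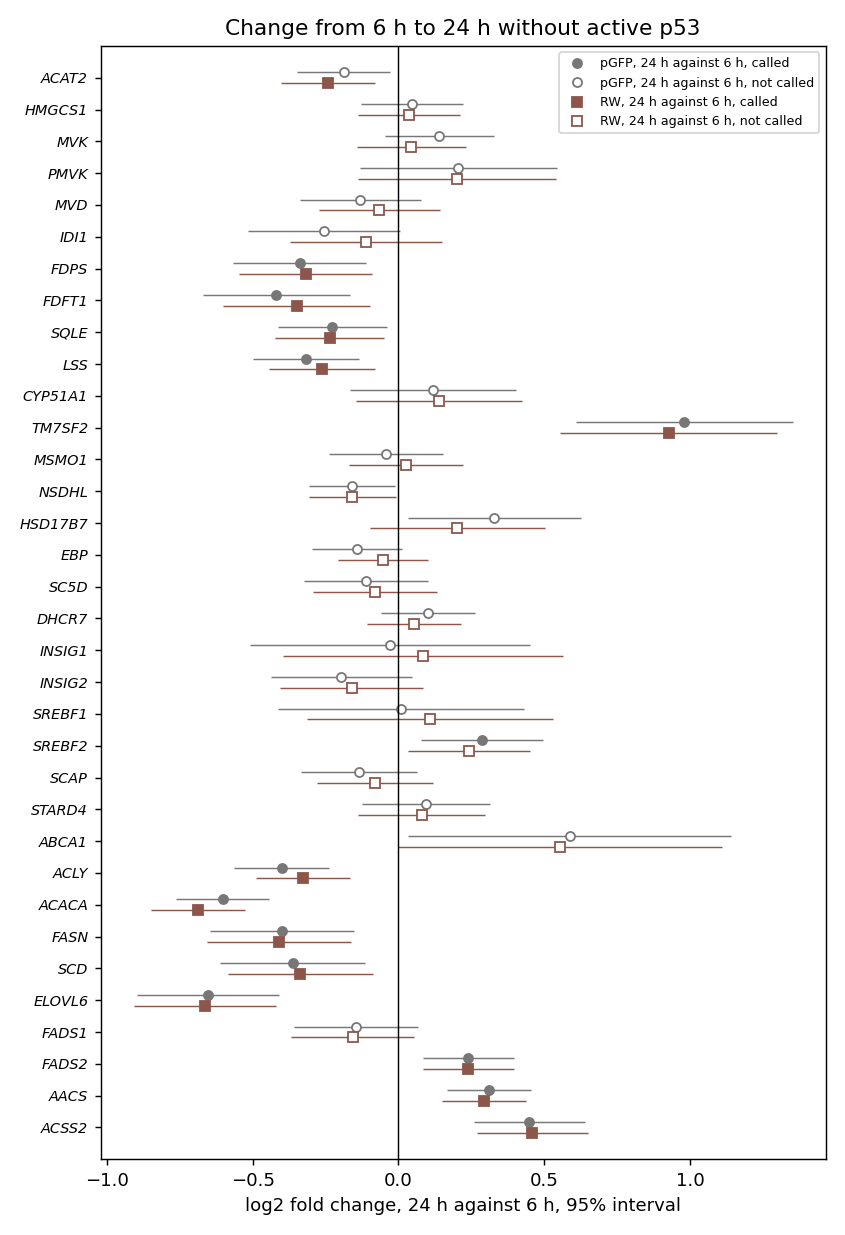
Log2 fold change from 6 h to 24 h with 95% interval for pGFP (circles) and RW mutant p53 (squares), filled where called, for 34 of the genes (ABCG1, with very few counts, is left out). ELOVL6 lies at −0.65 and −0.66 and TM7SF2 at 0.98 and 0.93.

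The genes PMVK, MVD, CYP51A1, MSMO1, EBP, DHCR7, INSIG1, SREBF1 and FADS1 were called in none of the 15 comparisons without the block. Another 12 were not called with wild type p53, p53 O6meG or p53 TM against pGFP in the fit without the block, so 21 of the 35 were without a call there. With the block 12 of the 21 were called in at least 1 of these comparisons, INSIG1 and SREBF2 at 6 h alone, and LSS, NSDHL, DHCR7, SCD, FADS1, MSMO1, ACLY, IDI1, SREBF1 and ELOVL6 with a call at 24 h. Per kilobase of exon the genes differed widely in level with pGFP at 6 h, from 180.5 CPM per kb for SCD, 73.4 for FASN, 66.4 for ACAT2 and 60.6 for ACLY to 1.22 for ABCA1 and 0.00585 for ABCG1. The gene that rose most with wild type p53 was thus among the lowest, while the most abundant, SCD, gave a log2 fold change of 0.19 ± 0.12.

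Other genes of the same pathways, from lists of 21 sterol and 23 fatty acid genes outside the set, were read in the same fits. With wild type p53 at 24 h 6 of the 21 were higher and 5 lower, and 7 of the 23 were higher and 3 lower, where 20.5% of all genes were higher and 14.5% lower. LPCAT3, an acyltransferase of phospholipids that is another liver X receptor target, rose from a mean of 31.4 to 114 CPM (log2 1.86, adjusted P = 2.70e-08). SCD5, the second human stearoyl-CoA desaturase, rose from 11.7 to 57.9 CPM (2.31, adjusted P = 1.06e-08), and FADS3, a relative of the fatty acid desaturases, from 7.61 to 21.9 CPM (1.52, adjusted P = 2.21e-08). CPT1A, which admits fatty acids to mitochondria for oxidation, rose from 66.8 to 109 CPM (0.71, adjusted P = 7.76e-06) and DGAT1, which completes triglycerides, from 37.5 to 58.1 CPM (0.63, adjusted P = 3.41e-06). The mitochondrial acetyl-CoA carboxylase ACACB fell from 13.6 to 8.77 CPM (−0.63, adjusted P = 0.000184). With p53 TM at 24 h LPCAT3 (61.4 CPM), SCD5 (30.9 CPM) and FADS3 (13.6 CPM) lay between the pGFP and wild type means, and each was lower than with wild type p53 (adjusted P = 0.00130, 0.00337 and 0.00180).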

How the data were processed

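Total RNA from sorted H1299 cells was sequenced in 30 libraries. The authors aligned single reads to hg38 with STAR 2.5.3a, counted them on GENCODE v27 genes with featureCounts (Subread 1.5.2) and deposited raw counts, which were used here. Whether counting used strand is not given in the sources used here. A second table, scaled by the authors with DESeq2 1.20, was not used. All 28 libraries with a group were fitted together in edgeR 4.0.16 (R 4.3.3, limma 3.58.1) with TMM scaling, filterByExpr and the quasi-likelihood test, and P values were adjusted by the Benjamini-Hochberg method over 21335 genes. Errors are SE and intervals 95%. CPM are TMM-scaled. The fits were tested on simulated data. Genes were matched to GENCODE v44 for positions, and 38904 of 39359 matched.

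All members were named, with values per library for those called with active p53 or between p53 TM and wild type p53. Members and lists were chosen with earlier results of these data known. At 24 h replicate numbers paired the samples, as all 30 same-numbered pairs of libraries had deviations that correlated above 0.1 (0.182 to 0.613). At 6 h 11 of 23 did, against 3 of 44 pairs with different numbers. The pairing at 6 h was thus weaker, and these numbers were not taken as pairs. The main fit and the fits without a library had no replicate term, so at 24 h they left the pairing out. The replicate block covered both times. Alternatives were DESeq2 1.42.0, its size factors, other filters, the compared groups alone, the replicate block, both placements of the conflicting titles and leaving out each library.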

Additional observations from a re-analysis of the deposited data

Results flagged for a closer look

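The response of AACS to wild type p53 was called as different between the times, with a log2 fold change of 0.04 at 6 h and −0.32 at 24 h. The tested difference was −0.36 (edgeR's quasi-likelihood test, adjusted P = 0.0272). This call was lost in 6 of 12 fits that each left out a library, and 2.77% of all genes were called lower in that test.

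Of the 2 libraries left out of every group, the one whose title starts with p53-O6meG and whose genotype names O6bzG carried 29.3 CPM of TM7SF2, 13.8 CPM of HSD17B7 and 81.9 CPM of ABCA1, each above all pGFP libraries at 6 h. The other library carried 10.9, 8.15 and 8.45 CPM of these genes. CDKN1A stood at 250 CPM in the first and 50.2 CPM in the other. Neither entered a comparison.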

How the results depend on the processing

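No call among the 94 pairs of a gene and a comparison changed direction in any alternative, and 43 of the 94 were kept without every single library. With the replicate block, the counts of called genes were 5 and 19 (wild type p53 against pGFP, 6 h and 24 h), 19 (wild type p53 against the RW mutant), 7 and 16 (p53 O6meG, 6 h and 24 h), 2 and 11 (p53 TM, 6 h and 24 h), 10 and 13 (p53 TM against wild type p53, 6 h and 24 h), 14 (p53 TM against p53 O6meG) and 5 (change of the wild type effect with time), and no call was lost. Calls over all genes rose too, at 24 h with wild type p53 against pGFP to 26.7% higher and 21.6% lower. The block was not run for the comparisons between times, since a number marks a pair only within 1 time. At 6 h the numbers paired the samples less clearly than at 24 h and were not taken as pairs, though the block covered both times. The fits that left out a library had no block.

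Without the filter on low counts, 9 genes were called with wild type p53 at 24 h against pGFP and 9 against the RW mutant. With only the groups compared, the counts were 7 for wild type p53 against the RW mutant, 3 for p53 TM against wild type p53 at 24 h and 0 for p53 TM against p53 O6meG, where DESeq2, its size factors and titles placed by their first part each gave 4 and titles by genotype 1. DESeq2 called 5 for p53 TM against pGFP at 24 h. Titles by genotype gave 0 for p53 O6meG against pGFP and 0 for p53 TM against wild type p53, both at 6 h, where titles by their first part gave 4 and 6. The cause was not tested.

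Leaving out 1 library gave 3 genes for wild type p53 against pGFP at 6 h, 9 to 13 at 24 h, and 9 to 11 against the RW mutant. It gave 3 to 5 and 7 to 8 for p53 O6meG, 0 and 2 to 4 for p53 TM, 2 to 6 and 4 to 6 for p53 TM against wild type p53, and 1 to 4 against p53 O6meG. It gave 9 to 15 and 8 to 15 for time with pGFP and the RW mutant, and 0 to 1 for the change of the wild type effect. Groups of 2 or 3 libraries limit the precision of changes under 1.5-fold.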
